A study of Mus musculus with 30 samples.

Results

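The genes described here encode carriers of the solute carrier families 1, 3, 6, 7, 36, 38 and 43, the families that hold most amino acid transporters of the plasma membrane and the lysosome. They were taken as every gene whose platform symbol was Slc1, Slc3, Slc6, Slc7, Slc36, Slc38 or Slc43 followed by "a" and a number, with each gene read from its brightest probe set, on average, among those with 1 gene symbol. This gave 60 genes of 19938 on the array, and 10 of the 60 carry transmitters, osmolytes or creatine or have no settled substrate, because family 6 also holds those carriers. RNA extracted from spleens and lymph nodes was hybridised to Affymetrix Mouse Gene 1.0 ST arrays, 1 array per tissue and mouse, in a comparison of HIV-1 transgenic mice with and without lymphoma of B cells. The transgenic line Tg26 carries the pNL4-3 provirus of HIV-1 without part of gag-pol, so that no infectious virus is made, and per the labels about 15% of Tg26 mice develop lymphoma. All Tg26 mice were heterozygous on the FVB/N background, from a colony bred from heterozygous animals with skin lesions, and all mice were killed at 5 to 12 months of age. The groups were FVB/N control mice (n = 3), asymptomatic Tg26 mice (n = 6) and Tg26 mice with lymphoma (n = 6), with the same numbers of arrays in each tissue. Mice 1 to 3 of each group formed batch A and mice 4 to 6 of both Tg26 groups formed batch B, so batch B held no FVB/N mouse. For the spleen array of lymphoma mouse 4 the labels disagree, since its status code is the FVB/N one but its name and description give lymphoma, and it was counted with the lymphoma group. Provirus transcripts were not analysed here.

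Cells take up most amino acids through carriers coupled to sodium (families 1, 6 and 38), to protons (family 36) or to the exit of another amino acid (family 7), and some through facilitated carriers (family 43). Most exchangers of family 7 reach the membrane only when bound to a heavy chain, the glycoprotein CD98hc encoded by Slc3a2 or its relative rBAT encoded by Slc3a1. In lymphocytes, activation and growth go with uptake of glutamine and leucine, and amino acids that reach the lysosome are sensed by the kinase complex mTORC1. When amino acids run short, the transcription factor ATF4 raises several of these carriers through a short element in their promoters.

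Promoters are shown for 5 carriers whose levels are described below, to place that element beside the data. The RefSeq promoter table (build GRCm38.p6, 250 bases before to 50 after each listed start) had 64 windows for 43 of the 60 genes. Its windows were searched on both strands for the core of the amino acid response element, TGATGNAA, and for the E-box CACGTG, the site of MYC and of the lysosomal regulator TFEB. Each stretch below runs from 150 bases before the start to 10 bases after it, 5′ to 3′ on the gene's strand, with any match in capitals.
Slc6a19 (chr13:73692627-73692786, minus strand): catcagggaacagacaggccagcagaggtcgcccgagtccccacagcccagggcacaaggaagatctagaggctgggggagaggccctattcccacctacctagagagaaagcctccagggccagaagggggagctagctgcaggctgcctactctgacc
Slc43a1 (chr2:84840173-84840332, plus strand): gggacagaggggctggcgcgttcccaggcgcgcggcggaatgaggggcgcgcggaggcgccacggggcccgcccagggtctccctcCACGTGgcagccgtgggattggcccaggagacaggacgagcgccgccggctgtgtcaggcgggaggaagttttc
Slc7a7 (chr14:54417935-54418094, minus strand, of 5 listed starts, the one with the most matches): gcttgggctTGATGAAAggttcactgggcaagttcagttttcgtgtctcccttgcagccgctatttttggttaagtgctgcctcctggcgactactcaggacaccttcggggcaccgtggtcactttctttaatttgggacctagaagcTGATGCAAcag
Slc38a2 (chr15:96699719-96699878, minus strand): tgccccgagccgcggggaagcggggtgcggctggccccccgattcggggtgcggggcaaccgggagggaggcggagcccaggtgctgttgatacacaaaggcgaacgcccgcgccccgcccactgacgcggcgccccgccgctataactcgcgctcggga
Slc7a11 (chr3:50443604-50443763, minus strand): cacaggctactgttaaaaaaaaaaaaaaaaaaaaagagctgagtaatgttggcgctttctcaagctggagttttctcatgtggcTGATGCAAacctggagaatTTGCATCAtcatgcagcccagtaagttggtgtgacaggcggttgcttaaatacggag
The core lay in Slc7a7 at positions -141 and -1 and in Slc7a11 at -66 and -47, counted from the start, and the E-box in Slc43a1 at -64. In the windows of Slc6a19 and Slc38a2 neither set of letters was found. Sequence further than 50 bases after the start was not searched, so a site elsewhere in these genes would not be seen. The response element core lay in 5 of the 64 windows, against 3.97% of all 32851 windows in the table, and the E-box in 9 of the 64, against 7.15% of all. The genes with the core were Slc1a4, Slc6a21, Slc7a7 and Slc7a11.

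Marker lists set the frame for the whole series. Genes of T cells averaged 6.52 to 7.55 on the log2 scale in lymphoma spleens and 9.56 to 9.89 in asymptomatic spleens, and 19 of 19 fell in both tissues. Of 14 genes of B cell precursors, such as Rag1 and Vpreb1, 12 rose in spleen and 11 in node, and of 21 proliferation genes 20 and 21 rose. Mature B cell genes averaged 8.55 to 10.14 in lymphoma spleens and 10.63 to 11.17 in asymptomatic spleens. In node these means overlapped, at 8.64 to 9.72 with lymphoma and 9.61 to 10.78 in asymptomatic mice. Of 13 such genes none rose and 7 fell in spleen, while 3 rose and 6 fell in node. In bulk tissue, a carrier lost with its cells cannot be told apart from less of its RNA per cell, and the part of these shifts in the differences below was not tested. Transcripts of other organs stood on 10 of the 30 arrays, where the mean of a list lay more than 1 log2 unit above its median over all arrays. The salivary gland list averaged 6.67 to 9.85 on 5 nodes (5.24 to 5.93 elsewhere) and the fat and muscle list 8.35 to 10.21 on 5 nodes (6.14 to 6.95 elsewhere). The pancreas list averaged 7.17 to 12.86 on 2 nodes and 2 spleens (5.83 to 6.68 elsewhere). Asymptomatic mouse 1 and FVB/N mouse 1 had the only nodes of their groups free of all 3 lists, against 5 of 6 lymphoma nodes.

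With lymphoma, 9 of the 60 transporter genes rose in spleen and none fell, while in lymph node 10 rose and 6 fell. A gene is said to rise or fall where limma's p, adjusted by Benjamini-Hochberg across the 19938 genes, was under 0.05. A fitted difference is the model's log2 estimate with its standard error (SE), which takes 6 surrogate variables into account. Fitted differences can depart from differences of group means, also in sign. In spleen 6 of 24 genes of the fat and muscle list fell, though no spleen carried that list. Their list had a median fitted difference of -0.88 and a median difference of means of -0.05. In node 4 of 26 salivary gland genes rose, with list medians of 0.64 (fitted) and -0.37 (means). In spleen 8.58% of all genes rose and 7.25% fell, and in node 11.6% rose and 12.5% fell. The median fitted difference of the 60 genes was 0.02 in spleen and 0.08 in node, against -0.03 and -0.02 for all genes. The 9 genes that rose in spleen also rose in node. They were Slc6a19, Slc43a1, Slc43a2, Slc43a3, Slc7a6, Slc7a7, Slc36a4, Slc38a1 and Slc38a2, and Slc7a5 rose in node alone. How many of all genes that rose in spleen also rose in node was not counted, and both tissues came from the same mice and fit. The sharing is therefore not shown to be particular to these carriers. The 6 that fell in node were Slc1a3, Slc36a1, Slc36a2, Slc38a4, Slc3a1 and Slc7a10. Of these 6, 5 had a mean level below that of the median gene, and 4 were not among the carriers kept apart below for organ transcripts. None of the 60 differed between the tissues in its response by the test of that difference (limma; unadjusted p under 0.05 for 2 higher and 7 lower in node), against 0.256% and 0.316% of all genes called. Without the spleen array of lymphoma mouse 4, 13 of the 60 rose and 2 fell in spleen, and without both arrays of that mouse 14 were called. Without the arrays that carried organ transcripts, and with batch as a term, 6 rose and 3 fell in node. That fit had a single asymptomatic node, which is assumed to vary like the other groups.

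**Figure D1:**
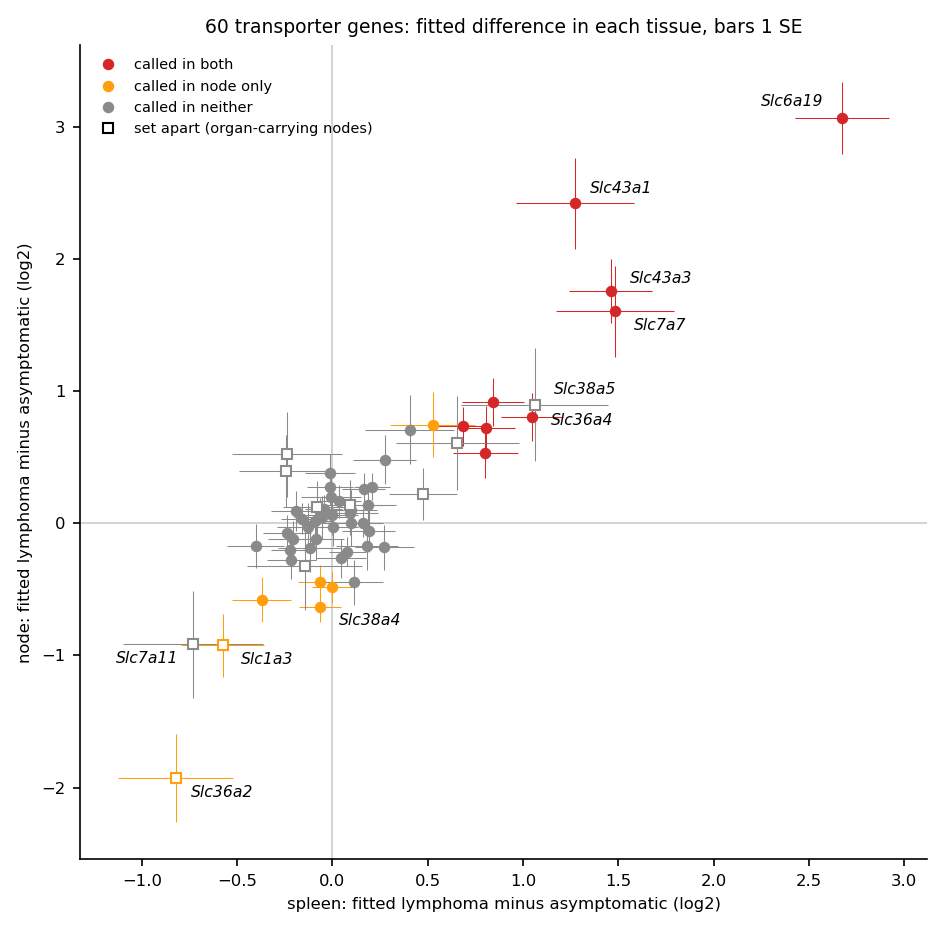
Fitted lymphoma minus asymptomatic difference (log2) of each of the 60 transporter genes in spleen (horizontal axis) and lymph node (vertical axis), with bars of 1 SE; color gives the calls, and open squares mark the 11 genes kept apart because organ-carrying nodes held high levels of them. Slc6a19 lies alone at the upper right with 2.67 in spleen and 3.07 in node, Slc43a1, Slc43a3 and Slc7a7 follow, and Slc36a2 lies lowest in node at -1.93.

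The carrier with the largest difference was Slc6a19, which encodes B0AT1, the sodium-coupled transporter that absorbs neutral amino acids in small intestine and kidney. Its level in FVB/N spleens was 5.15, 5.07 and 5.15, and the asymptomatic spleens ran from 4.74 through a median of 5.22 to 5.35. Lymphoma spleens ran from 7.27 through 8.54 to 9.24, so that the lowest lymphoma spleen lay above every other spleen. In node the FVB/N arrays read 4.92, 5.19 and 4.67, the asymptomatic arrays 5.15 to 5.67 with a median of 5.23, and the lymphoma arrays 8.23 to 9.60 with a median of 8.70. Lymphoma arrays overlapped with neither other group in either tissue, the FVB/N and asymptomatic arrays overlapped, and lymphoma mouse 2 was the highest in both. The means differed by 3.20 in spleen and 3.47 in node. The fitted difference was 2.67 (SE 0.25, adjusted p = 6.16e-08) in spleen and 3.07 (SE 0.27, adjusted p = 1.94e-08) in node, a fold of 6.37 and 8.37. The rise held in both batches (3.18 and 3.22 in spleen, 3.69 and 3.25 in node) and in each of the 27 other settings tried. The nodes of asymptomatic mouse 1 and FVB/N mouse 1, which carried no organ transcripts, read 5.44 and 4.92. In asymptomatic against FVB/N mice Slc6a19 differed by -0.01 in spleen (95% interval -0.52 to 0.50) and 0.23 in node (-0.31 to 0.78), both without a call.

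The other 7 amino acid carriers of the sodium- and chloride-coupled family were not called in either tissue. They include Slc6a18, the close relative that carries neutral amino acids in kidney, at 0.16 and 0.00 (fitted, spleen and node), Slc6a15 at 0.19 and 0.14, and the glycine carriers Slc6a5 and Slc6a9. In RefSeq gene order Slc6a18 lies directly beside Slc6a19. The gene on the other side, Slc12a7, a potassium-chloride cotransporter, fell by 0.81 in spleen and 1.22 in node, and Trip13, a mitotic checkpoint gene 3 places away, rose by 1.30 and 1.63. Among the 10 transmitter, osmolyte and creatine carriers, such as the taurine carrier Slc6a6 and the betaine carrier Slc6a12, none was called in either tissue.

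**Figure D2:**
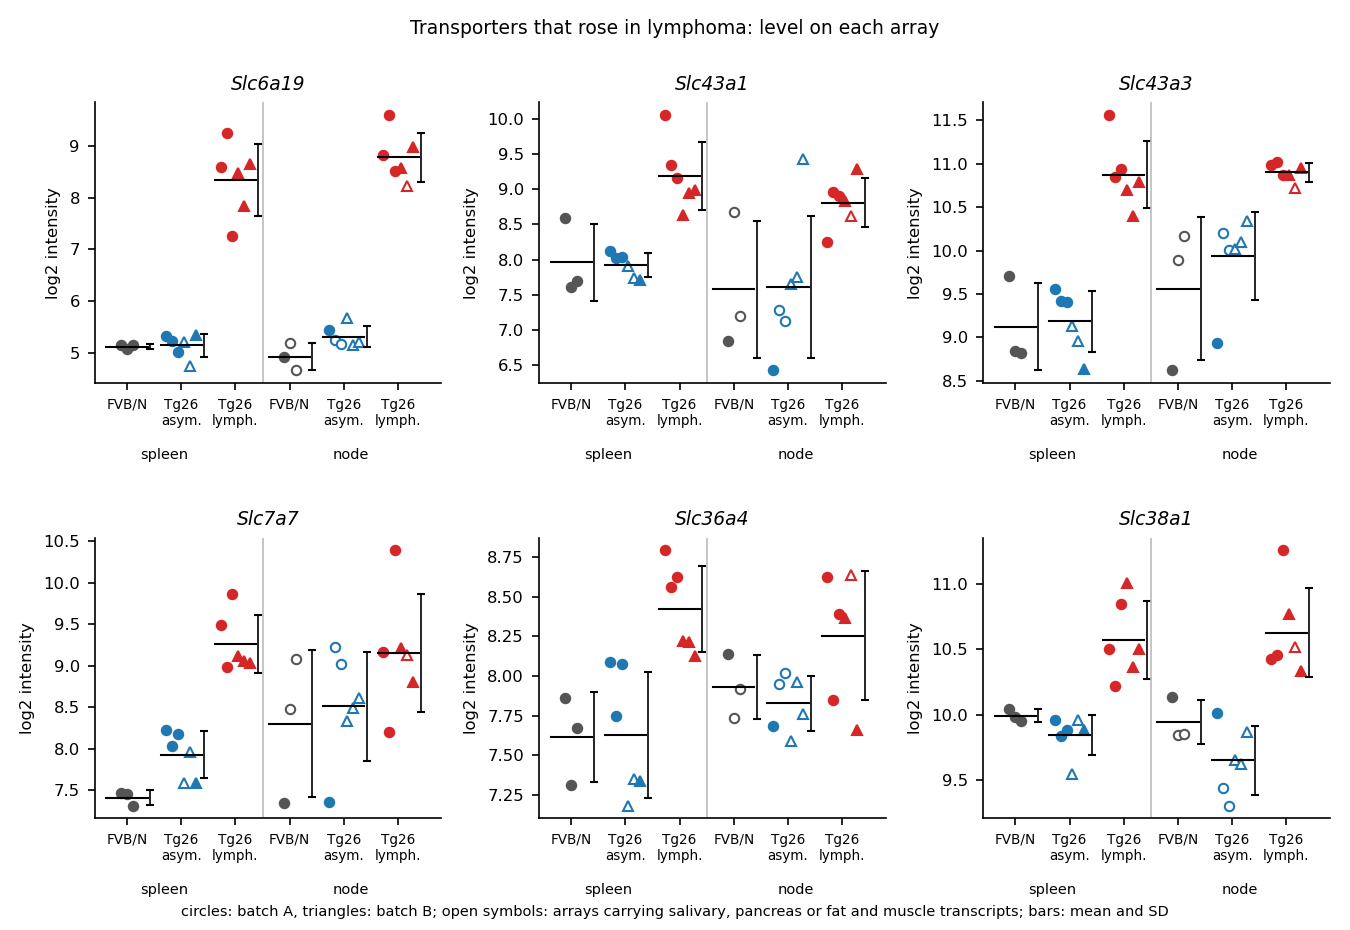
Log2 level on each array of 6 carriers that rose with lymphoma, by group (FVB/N n = 3, asymptomatic and lymphoma Tg26 n = 6 in each tissue), with the group mean and SD; circles are batch A, triangles batch B, and open symbols are arrays that carried organ transcripts. In spleen every lymphoma array lies above every asymptomatic array for the 6 genes shown, whereas in node the groups overlap for Slc43a1, Slc7a7 and Slc36a4. The other carriers that rose in both tissues, Slc7a6, Slc38a2 and Slc43a2, are not shown and overlap in spleen. The share of all genes without overlap was not counted.

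All 3 genes of family 43 rose in both tissues. Slc43a3, whose product carries purine nucleobases rather than amino acids, read 9.71, 8.84 and 8.82 in FVB/N spleens. Its asymptomatic spleens ran from 8.63 through 9.26 to 9.56 and its lymphoma spleens from 10.40 through 10.82 to 11.56, without overlap. In node the FVB/N arrays read 8.63, 9.89 and 10.17, the asymptomatic arrays 8.93 to 10.34 with a median of 10.06, and the lymphoma arrays 10.72 to 11.02 with a median of 10.91. All lymphoma nodes lay above all others, by a smaller step than in spleen. The fitted difference of Slc43a3 was 1.46 (SE 0.22, adjusted p = 3.48e-05) in spleen and 1.76 (SE 0.24, adjusted p = 7.42e-06) in node, where the means differed by 0.97. The lowest asymptomatic node for Slc43a3 was mouse 1, at 8.93, the asymptomatic node that carried no organ transcripts.

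Slc43a1 encodes LAT3, a facilitated carrier of leucine and other large neutral amino acids. Its FVB/N spleens read 8.59, 7.60 and 7.69, the asymptomatic spleens 7.71 to 8.12 (median 7.96) and the lymphoma spleens 8.64 to 10.05 (median 9.07), without overlap between the Tg26 groups. The node arrays read 6.84, 8.68 and 7.20 in FVB/N, 6.43 to 9.43 (median 7.46) in asymptomatic and 8.25 to 9.29 (median 8.87) in lymphoma mice. A single asymptomatic node, that of mouse 6 at 9.43, lay above all lymphoma nodes, and the next asymptomatic node read 7.75. Slc43a1 rose by a fitted 1.27 (SE 0.31, adjusted p = 0.00571) in spleen and 2.42 (SE 0.35, adjusted p = 1.28e-05) in node, where the means differed by 1.20. Within batch B alone the differences of Slc43a1 were 1.08 (adjusted p = 0.115) and 0.64 (adjusted p = 0.268), so neither passed there. Without the organ-carrying arrays the node value was 2.52. That fit held a single asymptomatic node, that of mouse 1, which was the lowest of its group at 6.43.

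The highest Slc43a1 level of each tissue lay on the array with the highest mean of red cell genes. The erythroid list, with genes such as Klf1 and Alas2, averaged 9.38 in the node of asymptomatic mouse 6 and 6.14 to 7.46 in all other nodes. In spleen it was highest in lymphoma mouse 1, at 10.04, where Slc43a1 also peaked at 10.05. Of the 16 erythroid genes measured, 4 rose with lymphoma in spleen and 8 in node by the fit, against 8.58% and 11.6% of all genes. The list's median fitted difference in node was 1.45, while the median difference of group means was -0.42, so the estimates differ in sign. Lymphoma spleen 4 had the lowest erythroid mean of its group, 6.55, and the lowest Slc43a1 level of its group, 8.64. Its Slc43a1 level lay above every asymptomatic spleen, and the erythroid means of the asymptomatic spleens were 7.53 to 8.64. The part of red cells in the rise of Slc43a1 was not tested.

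Slc43a2, the related carrier LAT4, rose by a fitted 0.80 (SE 0.17, adjusted p = 0.00161) in spleen and 0.53 (SE 0.19, adjusted p = 0.0435) in node. The FVB/N spleens read 8.52, 8.27 and 8.37, the asymptomatic spleens 8.38 to 8.61 and the lymphoma spleens 8.32 to 9.72, with overlap. In spleen the 3 batch A lymphoma arrays read 8.42, 8.32 and 8.67 and the 3 of batch B 9.72, 9.60 and 9.29. The difference of means was therefore -0.02 within batch A and 1.01 within batch B. With mouse number as a block the spleen value of Slc43a2 was 0.49 (adjusted p = 0.0711), and it also lost its call without asymptomatic mouse 6 (0.33) or without lymphoma mouse 2 (0.59), 3 (0.30) or 5 (0.08). In node the asymptomatic arrays read 8.28 to 8.79 and the lymphoma arrays 7.95 to 9.61, and the call was lost in 23 of 27 other settings. Without lymphoma mouse 3 the node value turned to -0.07. Leaving out any asymptomatic mouse, any lymphoma mouse or FVB/N mouse 2 ended the node call, with values from -0.07 to 0.50.

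In RefSeq gene order Slc43a1 and Slc43a3 lie 2 places apart. The gene between them, Rtn4rl2, a Nogo receptor relative, was not called, at a fitted 0.07 in spleen and 0.23 in node, nor was Timm10 on the far side of Slc43a1 (0.07 and -0.12). On the far side of Slc43a3, Prg2 and Prg3 were not called, and P2rx3, an ATP-gated channel 3 places away, rose by 0.81 (adjusted p = 0.0131) in spleen and 1.47 (adjusted p = 8.97e-05) in node.

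Among the heteromeric exchangers, 2 light chains rose in spleen and 3 in node, while their heavy chain did not. Slc7a7 and Slc7a6 encode y+LAT1 and y+LAT2, which export arginine and lysine in exchange for neutral amino acids and sodium. Slc7a7 read 7.47, 7.46 and 7.32 in FVB/N spleens, 7.59 to 8.23 (median 7.997) in asymptomatic spleens and 8.98 to 9.87 (median 9.09) in lymphoma spleens, a stepwise order without overlap. Its fitted rise in spleen was 1.48 (SE 0.31, adjusted p = 0.00143). Within batch A it was 1.30 (adjusted p = 0.134) and within batch B 1.36, and without lymphoma mouse 3 it was 0.96 with the call kept.

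In node Slc7a7 overlapped between the Tg26 groups. It read 7.35, 8.48 and 9.08 in FVB/N, 7.37 to 9.23 (median 8.55) in asymptomatic and 8.21 to 10.39 (median 9.15) in lymphoma mice. The fitted difference in node was 1.60 (SE 0.34, adjusted p = 0.00118), whereas the means differed by 0.64, and the call was lost without surrogate variables (adjusted p = 0.118). The nodes lowest in Slc7a7 were those of FVB/N mouse 1 and asymptomatic mouse 1, at 7.35 and 7.37. The macrophage list, with genes such as Adgre1 and C1qa, averaged 7.02 and 7.12 in those nodes. It averaged 8.45 to 9.46 in the other 7 nodes without lymphoma and 6.51 to 7.56 in lymphoma nodes. In lymphoma nodes Slc7a7 was highest, at 10.39, in mouse 3, where the macrophage list averaged 6.73. Slc7a7 is known from macrophages, and their part in its levels was not tested.

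Slc7a6 read 9.07, 9.18 and 9.12 in FVB/N spleens, 8.22 to 8.94 (median 8.63) in asymptomatic spleens and 8.84 to 9.97 (median 9.58) in lymphoma spleens. The lowest lymphoma spleen, mouse 5, lay within the asymptomatic range. In node the 3 groups read 8.32 to 9.54, 8.21 to 9.09 and 9.07 to 10.07, the last with its lowest array just under the highest asymptomatic one. Slc7a6 rose by a fitted 0.81 (SE 0.15, adjusted p = 5.06e-04) in spleen and 0.72 (SE 0.17, adjusted p = 0.00247) in node. Without lymphoma mouse 2 the spleen value was 0.54 with the call kept. The node call was lost without asymptomatic mouse 1 (0.54) or 4 (0.57) or lymphoma mouse 1 (0.50).

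Slc7a5 encodes LAT1, the main leucine carrier of activated lymphocytes and the partner of CD98hc. Its levels were 9.85, 9.65 and 9.60 in FVB/N spleens, 8.79 to 9.77 (median 9.38) in asymptomatic spleens and 9.13 to 11.25 (median 10.34) in lymphoma spleens. Of the 6 lymphoma spleens 5 lay above all asymptomatic ones, and the means differed by 0.97. The fitted difference in spleen was 0.53 (95% interval 0.07 to 0.99, adjusted p = 0.122), which did not pass. In node Slc7a5 read 9.90, 11.32 and 9.90 in FVB/N, 8.91 to 10.72 (median 9.79) in asymptomatic and 9.22 to 11.30 (median 10.29) in lymphoma mice, with a fitted difference of 0.75 (SE 0.25, adjusted p = 0.0302). That call was lost in 18 of 27 other settings, including the fit without surrogate variables (0.46) and the one without lymphoma mouse 1 (0.27). It was also lost without asymptomatic mouse 1 or 4, FVB/N mouse 2 or 3, or lymphoma mouse 2, 4 or 6, at 0.63 to 0.77.

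Slc3a2, the heavy chain CD98hc, was not called with lymphoma in either tissue. It read 11.12, 11.58 and 11.58 in FVB/N spleens, 10.28 to 11.20 (median 10.65) in asymptomatic and 10.04 to 11.22 (median 10.48) in lymphoma spleens. Nodes read 11.00, 11.88 and 10.80 in FVB/N, 10.31 to 11.09 in asymptomatic and 10.00 to 11.02 in lymphoma mice. The fitted differences of Slc3a2 were -0.13 in spleen (adjusted p = 0.677) and -0.03 in node (adjusted p = 0.94). Asymptomatic batch A spleens read 10.92 to 11.20 and batch B spleens 10.28 to 10.39, so the levels differed by batch. Slc3a1, the heavy chain rBAT of kidney and gut, fell by a fitted 0.45 in node (SE 0.13, adjusted p = 0.0142), where the means differed by -0.19. That call was lost in 11 of 26 other settings, among them the fits without asymptomatic mouse 1 or 4, FVB/N mouse 1, or lymphoma mouse 1 (-0.28) or 2.

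Slc7a11 encodes xCT, which imports cystine for glutathione and whose promoter held 2 response element cores, at -66 and -47 as given above. In spleen it read 5.61, 4.73 and 4.80 in FVB/N, 5.22 to 5.72 (median 5.48) in asymptomatic and 4.51 to 5.06 (median 4.73) in lymphoma mice, so that every lymphoma spleen lay below every asymptomatic spleen. The fitted difference was -0.73 (adjusted p = 0.202) and did not pass. In node it read 6.71, 7.24 and 8.001 in FVB/N, 5.34 to 7.79 (median 7.36) in asymptomatic and 4.45 to 6.46 (median 5.01) in lymphoma mice, with a fitted difference of -0.92 (adjusted p = 0.113). The lowest asymptomatic node was again that of mouse 1, without organ transcripts, at 5.34. Slc7a10, a carrier of small neutral amino acids known from brain and fat, fell in node by a fitted 0.58 (SE 0.17, adjusted p = 0.0149). With the organ lists as terms that difference was -0.19 (adjusted p = 0.611), and the call was also lost without asymptomatic mouse 4, FVB/N mouse 1 or 2 or lymphoma mouse 5 (-0.37). The other 5 light chains, Slc7a8, Slc7a9, Slc7a12, Slc7a13 and Slc7a15, were not called.

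**Figure D3:**
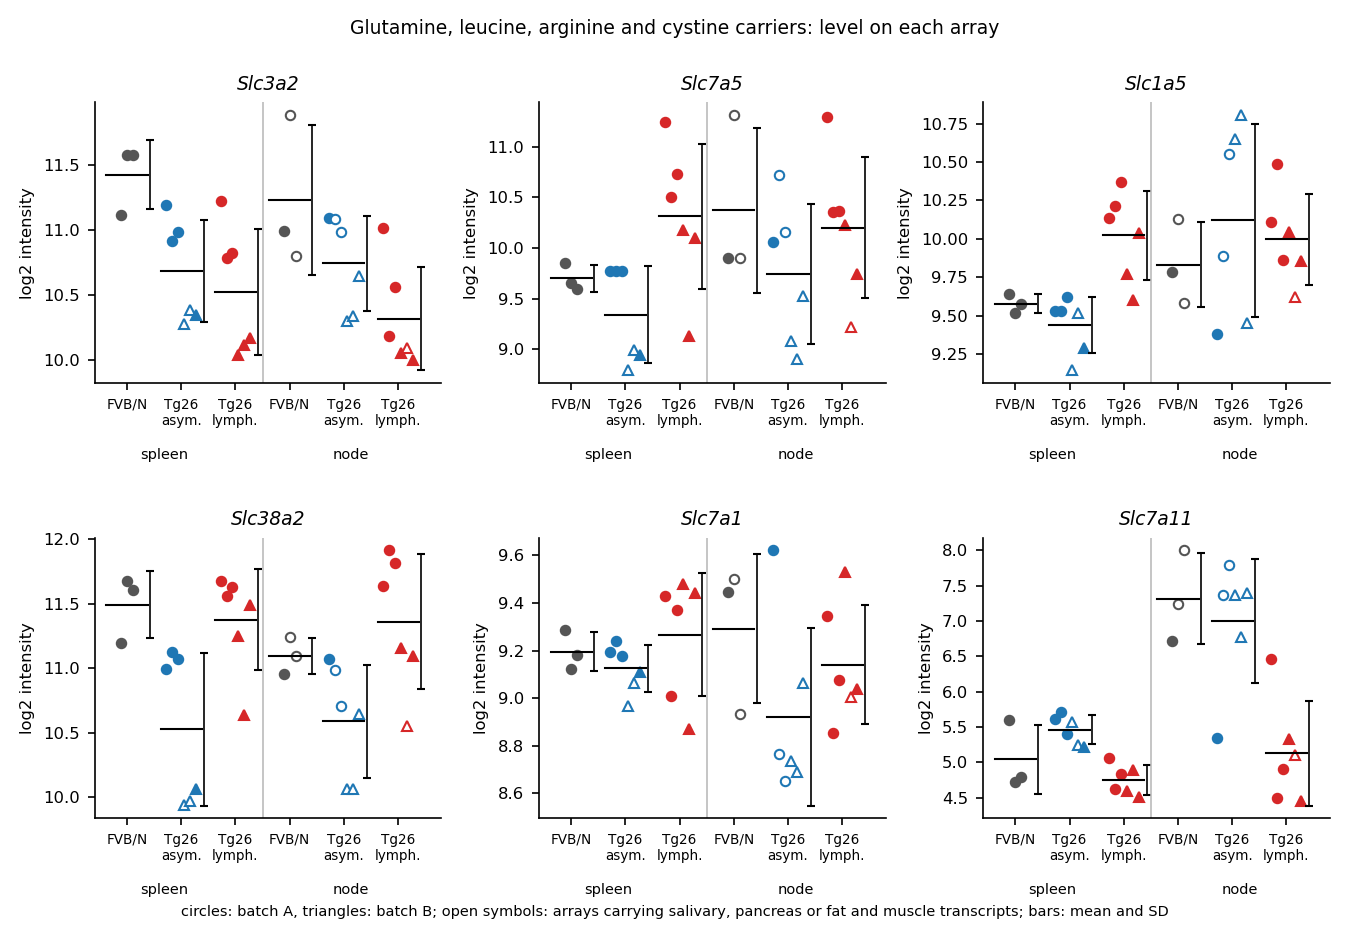
Log2 level on each array of the heavy chain Slc3a2 and 5 carriers of leucine, glutamine, arginine and cystine, by group (FVB/N n = 3, asymptomatic and lymphoma Tg26 n = 6 in each tissue), with the group mean and SD; circles are batch A, triangles batch B, and open symbols are arrays that carried organ transcripts. Slc38a2 lies lower in batch B asymptomatic spleens (9.93 to 10.06) than in those of batch A (11.00 to 11.13), and every lymphoma spleen lies below every asymptomatic spleen for Slc7a11.

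Of the 11 sodium-coupled neutral carriers (SNATs), Slc38a1 and Slc38a2, the glutamine carriers SNAT1 and SNAT2, rose in both tissues. Slc38a1 read 10.05, 9.98 and 9.96 in FVB/N spleens, 9.55 to 9.97 (median 9.89) in asymptomatic and 10.22 to 11.01 (median 10.50) in lymphoma spleens. Its node levels were 10.14, 9.85 and 9.85, then 9.31 to 10.02 (median 9.64), then 10.34 to 11.26 (median 10.49). Lymphoma arrays lay above all others in both tissues. The fitted rise of Slc38a1 was 0.84 (SE 0.16, adjusted p = 7.22e-04) in spleen and 0.92 (SE 0.18, adjusted p = 5.27e-04) in node. Without lymphoma mouse 3 these values were 0.52 and 0.57, with both calls kept. Within batch A the spleen value was 0.63 (adjusted p = 0.0739), and without organ-carrying arrays the node value was 0.64 (adjusted p = 0.193). A second probe set of Slc38a1, not used in the fit, averaged 7.94 in asymptomatic and 8.86 in lymphoma spleens, and 7.92 and 8.86 in nodes.

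Slc38a2 was higher in lymphoma than in asymptomatic mice but not than in FVB/N mice. It read 11.20, 11.68 and 11.61 in FVB/N spleens, 9.93 to 11.13 (median 10.53) in asymptomatic and 10.63 to 11.68 (median 11.53) in lymphoma spleens. Node levels were 10.95, 11.24 and 11.09, then 10.06 to 11.07 (median 10.67), then 10.55 to 11.91 (median 11.40). The Tg26 groups overlapped in both tissues. The fitted rise of Slc38a2 was 0.69 (SE 0.13, adjusted p = 7.36e-04) in spleen, with 0.56 within batch A and 1.14 within batch B, and 0.73 (SE 0.15, adjusted p = 6.78e-04) in node. Without organ-carrying arrays the node value was 0.72 (adjusted p = 0.0769). In asymptomatic against FVB/N spleen it was -0.53 (adjusted p = 0.0726), which did not pass.

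Slc38a4, SNAT4, known from liver and placenta, fell in node. It read 5.57, 6.24 and 6.15 in FVB/N nodes, 5.60 to 6.23 (median 5.95) in asymptomatic and 5.17 to 5.49 (median 5.29) in lymphoma nodes, so every lymphoma node lay below every other node. The fitted difference was -0.63 (SE 0.12, adjusted p = 3.64e-04), and in spleen, where all arrays read 4.91 to 5.51, it was -0.07. The difference between the tissues was -0.56 (adjusted p = 0.0839), short of the threshold. In RefSeq gene order Slc38a1, Slc38a2 and Slc38a4 follow each other directly. Slc38a9, the lysosomal arginine sensor that signals to mTORC1, was not called, at 0.27 (adjusted p = 0.312) in spleen and 0.48 (adjusted p = 0.0623) in node. It read 9.29, 9.08 and 9.08 in FVB/N spleens, 8.84 to 9.17 (median 8.92) in asymptomatic and 8.53 to 9.46 (median 9.03) in lymphoma spleens. In node it read 8.94, 8.46 and 8.91, then 8.50 to 9.48 (median 8.60), then 8.83 to 9.18 (median 9.06), with overlap in both tissues. The remaining 7 SNAT genes, Slc38a3, Slc38a5, Slc38a6, Slc38a7, Slc38a8, Slc38a10 and Slc38a11, were not called in either tissue.

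The sodium-coupled exchangers of family 1 were not called. Slc1a5, the glutamine exchanger ASCT2, read 9.64, 9.51 and 9.57 in FVB/N spleens, 9.14 to 9.62 in asymptomatic and 9.60 to 10.37 in lymphoma spleens, and the means differed by 0.58. The fitted difference was 0.10 (95% interval -0.24 to 0.43, adjusted p = 0.762) in spleen and 0.00 (adjusted p = 0.994) in node, where the asymptomatic arrays (9.38 to 10.81) spanned the lymphoma arrays (9.62 to 10.49). Slc1a4, the related ASCT1, was at 0.71 in node (adjusted p = 0.0515), just short of a call. Of the 5 glutamate and aspartate carriers, Slc1a3 fell in node and is described with the organ transcripts below, and Slc1a1, Slc1a2, Slc1a6 and Slc1a7 were not called.

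None of the 5 cationic carriers was called. Slc7a1, the arginine carrier CAT1, read 9.28, 9.12 and 9.18 in FVB/N spleens, 8.97 to 9.24 in asymptomatic and 8.87 to 9.48 in lymphoma spleens, with a fitted difference of 0.09. The nodes read 9.45, 9.50 and 8.93, then 8.65 to 9.62, then 8.85 to 9.53, with a fitted difference of 0.08 (95% interval -0.27 to 0.42). The others, Slc7a2, Slc7a3, Slc7a4 and Slc7a14, lay between -0.24 and 0.40 over both tissues.

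The proton-coupled carriers went in both directions. Slc36a4, a carrier of proline and tryptophan, rose. It read 7.86, 7.31 and 7.67 in FVB/N spleens, 7.18 to 8.09 (median 7.55) in asymptomatic and 8.13 to 8.79 (median 8.39) in lymphoma spleens, with the lymphoma spleens above all others and the FVB/N spleens within the asymptomatic range. Its nodes read 8.14, 7.73 and 7.92, then 7.59 to 8.02 (median 7.85), then 7.66 to 8.64 (median 8.38), where lymphoma mice 2 and 6 lay within the asymptomatic range. The fitted rise was 1.05 (SE 0.16, adjusted p = 5.74e-05) in spleen and 0.81 (SE 0.18, adjusted p = 0.0017) in node. Without lymphoma mouse 5 the spleen value was 0.69, with the call kept. The node call of Slc36a4 was lost without surrogate variables (0.43, adjusted p = 0.0752), without asymptomatic mouse 1 (0.58) or 4 (0.74), and without organ-carrying arrays (0.67). Without lymphoma mouse 3 (0.53) or 5 (0.48) it was kept at a lower value.

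Slc36a1, which exports amino acids from the lysosome, fell in node by a fitted 0.48 (SE 0.12, adjusted p = 0.0031). It read 9.16, 8.52 and 8.74 in FVB/N nodes, 8.41 to 9.14 (median 8.55) in asymptomatic and 7.91 to 8.64 (median 8.21) in lymphoma nodes, with overlap. In spleen its fitted difference was 0.00, although the means differed by -0.23. The node value was -0.36 (adjusted p = 0.181) within batch A. Without organ-carrying arrays it was -0.75, with a single asymptomatic node, that of mouse 1, the highest of its group at 9.14. Slc36a3 was not called.

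**Figure D4:**
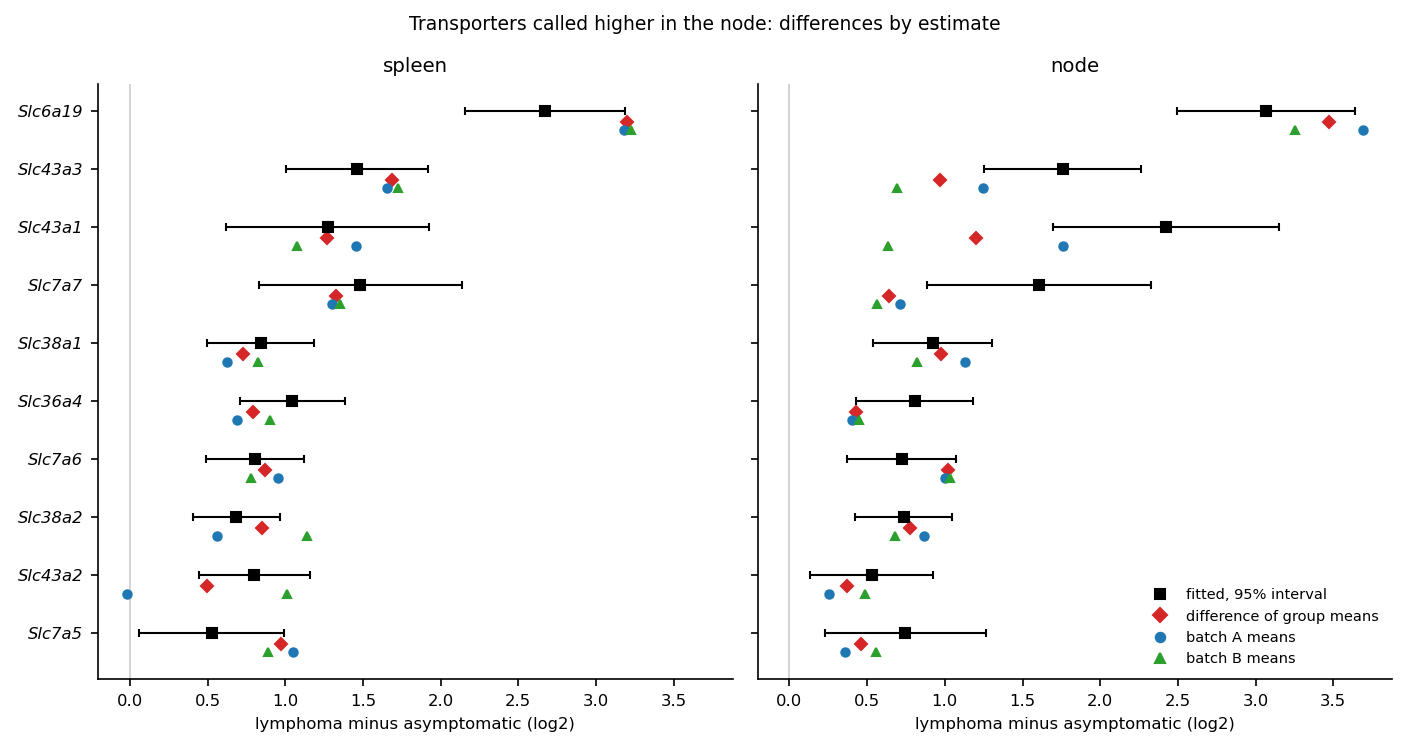
Lymphoma minus asymptomatic difference (log2) of the 10 carriers that rose in node, in spleen (left) and node (right): black squares are fitted differences with 95% intervals, red diamonds differences of group means, blue circles and green triangles the differences of means within batch A and batch B. In node the fitted values of Slc43a1 (2.42), Slc43a3 (1.76) and Slc7a7 (1.60) lie above the differences of means (1.20, 0.97 and 0.64), and Slc43a2 in spleen lies near 0 in batch A.

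A group of 11 carriers was kept apart, because on an array that carried salivary gland, pancreas or fat and muscle transcripts their level lay more than 1 log2 unit above the highest array of that tissue that carried none. All 11 stood out in nodes and none in spleens. Slc36a2, the proton-coupled carrier PAT2 of fat and muscle, read 8.15, 9.97, 9.87 and 10.15 for asymptomatic mice 2 to 5 and 7.99 for FVB/N mouse 2. Those are the 5 nodes that carried fat and muscle transcripts, and nodes without organ transcripts read 5.82 to 6.93. Its fitted fall with lymphoma in node was 1.93 (SE 0.33, adjusted p = 1.33e-04), without overlap between the Tg26 groups. With the organ lists as terms the difference was -0.42 (adjusted p = 0.384), and without asymptomatic mouse 6 it was -1.27 with the call kept. Without organ-carrying arrays it was -0.73, from a single asymptomatic node. Slc1a3, the glutamate carrier GLAST, reached 8.84 in the node of asymptomatic mouse 5 against at most 6.60 in nodes without organ transcripts. It fell by a fitted 0.92 (SE 0.24, adjusted p = 0.00624) with lymphoma. Without organ-carrying arrays that difference was -0.23 (adjusted p = 0.651), and the call was also lost without asymptomatic mouse 4 or 6 (-0.53 each) or lymphoma mouse 3 (-0.61) or 5 (-0.52).

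The other 9 had their highest levels on 3 nodes. In the node of asymptomatic mouse 6, which carried pancreas transcripts, Slc38a3 reached 8.55, Slc38a5 9.55, Slc6a9 9.73 and Slc7a8 9.58, against at most 5.99, 6.62, 7.14 and 6.98 in nodes without organ transcripts. Slc38a5 and Slc6a9 are also known from red cell precursors, and this node had the highest erythroid mean of all nodes. In the node of FVB/N mouse 2, with salivary gland and fat transcripts, the amino acid carrier Slc6a14 reached 7.49, the creatine carrier Slc6a8 8.40, Slc7a2 7.52 and Slc7a4 7.98. In nodes without organ transcripts these read at most 4.89, 6.49, 5.70 and 6.96. Slc7a11 peaked at 8.001 in the node of FVB/N mouse 3, with salivary gland transcripts, against at most 6.71. Beyond Slc36a2 and Slc1a3, none of the 11 was called with lymphoma in either tissue. Slc38a5 had a fitted difference of 0.90 in node while its means differed by -0.64.

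**Figure D5:**
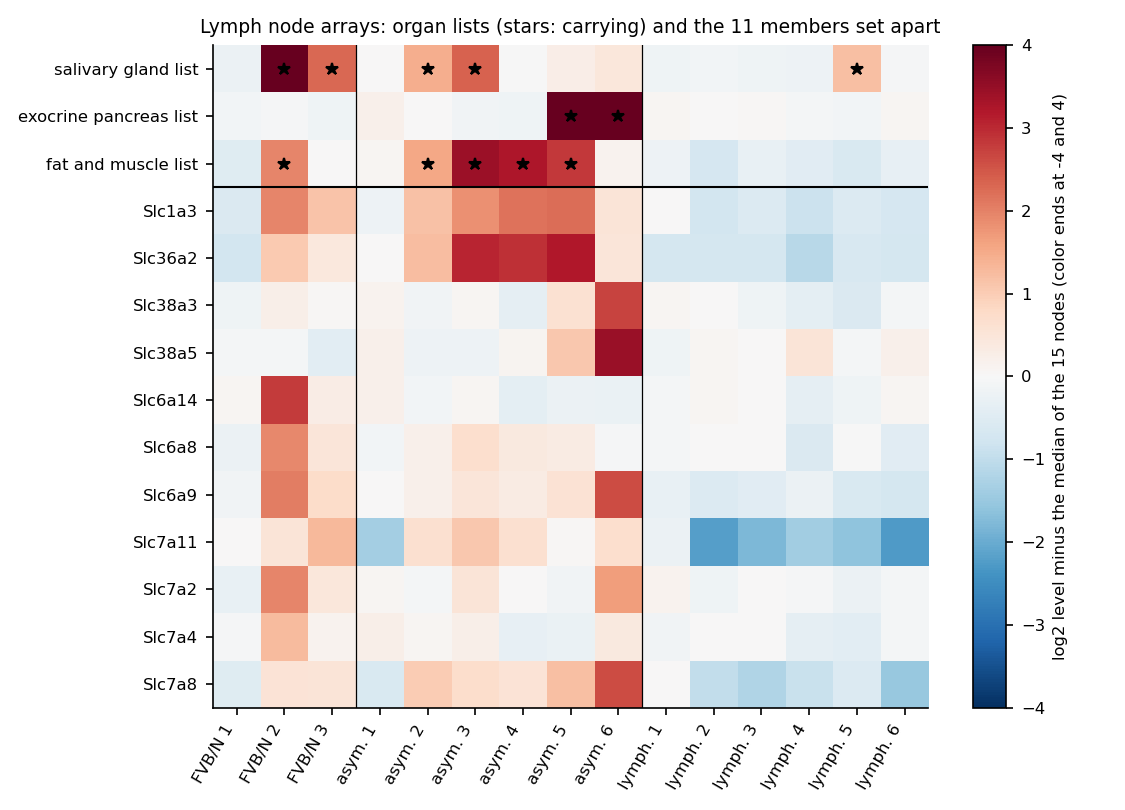
Level of the 3 organ lists (top rows; stars mark arrays counted as carrying) and of the 11 carriers kept apart on each of the 15 lymph node arrays, as log2 difference from the median of the 15 nodes, in color from blue (low) to red (high). Slc36a2 and Slc1a3 are high on the nodes with a starred fat and muscle list (up to 3.21 and 2.24 above the median), and Slc38a3, Slc38a5, Slc6a9 and Slc7a8 on the node of asymptomatic mouse 6.

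Few of these genes were called between asymptomatic Tg26 and FVB/N mice, and few of all genes were. With 3 FVB/N mice, a missing call does not show equal levels. None of the 60 was called in spleen (limma; unadjusted p under 0.05 for 4 higher and 3 lower), against 0.306% of all genes higher and 0.311% lower. In node Slc36a2 alone rose, by 1.57 (SE 0.32, adjusted p = 0.0127), against 1.34% higher and 0.592% lower of all genes. With the organ lists as terms Slc36a2 was at 0.18 (adjusted p = 0.896), and the call was lost without asymptomatic mouse 3 (1.49) or 4 (1.44), FVB/N mouse 2 (1.35) or lymphoma mouse 2 (1.38). The count in node ran from 0 to 4 as single mice were left out, with 4 without asymptomatic mouse 1, 3 without asymptomatic mouse 6, 2 without FVB/N mouse 3 or lymphoma mouse 4 or 6, and 0 without asymptomatic mouse 3, FVB/N mouse 2 or lymphoma mouse 2. In spleen 1 gene was called without FVB/N mouse 1. The light chain Slc7a8, LAT2, read 6.56, 6.12 and 6.54 in FVB/N spleens and 7.05 to 7.58 in asymptomatic spleens, without overlap, at a fitted 0.93 (adjusted p = 0.237). The macrophage list averaged 6.92 to 6.99 in FVB/N and 7.96 to 8.39 in asymptomatic spleens, and 7 of its 19 genes rose there.

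Against FVB/N mice, lymphoma mice share the lymphoma arrays with the comparison above, so the values are given side by side. In spleen 8 of the 60 rose and 1 fell (all genes: 7.1% and 5.25%), and in node 6 rose and 3 fell (all genes: 8.59% and 7.98%). Slc6a19 rose by a fitted 2.67 (SE 0.30) in spleen and 3.30 (SE 0.33) in node. Slc7a7 rose by 2.18 and 2.07, Slc43a3 by 1.62 and 2.05, Slc36a4 by 1.32 and 0.95 and Slc43a1 by 1.22 and 2.00. Slc43a2 (0.83), Slc38a1 (0.78) and Slc7a6 (0.63) rose in spleen, and Slc38a8 (0.41) rose in node. Slc36a2 fell by a fitted 1.22 in spleen, where the means differed by -0.20, and without surrogate variables it was not called. In node the GABA carrier Slc6a13 fell by 0.70, Slc38a4 by 0.62 and Slc36a1 by 0.42. Several of these calls were lost when a single mouse was left out, controls and the asymptomatic mice that share the fit included. For some, such as Slc43a1 in spleen, the estimate changed little. In spleen the call was lost for Slc43a1 without asymptomatic mouse 1, FVB/N mouse 3 or lymphoma mouse 1 or 2 (1.13 to 1.41), and for Slc43a2 without asymptomatic mouse 6 or lymphoma mouse 2, 3, 5 or 6 (0.10 to 0.66). It was lost for Slc38a1 without FVB/N mouse 3 (0.72) or lymphoma mouse 2 (0.52), and without lymphoma mouse 3 it was kept at 0.41. For Slc7a6 it was lost without asymptomatic mouse 4, FVB/N mouse 1 or 3 or lymphoma mouse 1, 2 or 6 (0.37 to 0.63). For Slc36a2 it was lost without asymptomatic mouse 1, 4, 5 or 6, FVB/N mouse 2 or lymphoma mouse 1, 5 or 6 (-1.23 to -0.56). In node it was lost for Slc36a1 without asymptomatic mouse 1, 3 or 4, FVB/N mouse 1 or 3 or lymphoma mouse 1 or 2 (-0.42 to -0.32), and was at -0.64 without lymphoma mouse 5. For Slc38a8 it was lost without asymptomatic mouse 4 or 5, FVB/N mouse 1 or 3 or lymphoma mouse 2 or 5 (0.32 to 0.39). Without FVB/N mouse 1 the value of Slc6a13 was -0.33 (adjusted p = 0.494). Without lymphoma mouse 3 Slc7a7 in node was 1.34 and Slc36a4 0.62, with both calls kept, and without lymphoma mouse 5 Slc36a4 was 0.46 with the call lost. In node Slc36a4 also lost its call without surrogate variables (0.32), with batch in their place (0.49), within batch A (0.36), with the organ lists as terms (0.51) and without organ-carrying arrays (0.21). Slc7a7 in node lost it without surrogate variables (0.85), with batch in their place (0.98) and within batch A (0.95). For Slc43a1 in node it was lost with batch in their place (1.16), within batch A (1.13) and with mouse number as a block (1.16), and Slc43a3 without surrogate variables was at 1.34 with the call kept. The spleen count was 5 without lymphoma mouse 2 and the node count 15 without asymptomatic mouse 6.

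Between the tissues of lymphoma mice, none of the 60 was called (limma; unadjusted p under 0.05 for 4 higher and 4 lower in node), against 0% of all genes higher in node and 0.0552% lower. The fit had no mouse term, so it did not use that both tissues came from the same mice. Slc38a5 differed most, at a fitted -1.23 (adjusted p = 0.115) in node against spleen. Slc6a19 was at 0.43 (95% interval 0.03 to 0.83, adjusted p = 0.536). Without lymphoma mouse 4, 2 of the 60 were called. In the response to lymphoma, Slc43a1 had the largest positive difference between tissues, 1.15 higher in node (adjusted p = 0.256), and Slc36a2 the largest negative, -1.11 (adjusted p = 0.26). Without asymptomatic mouse 1, 3 of the 60 were called in that comparison, and without lymphoma mouse 1 or 6, 1 was.

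Some other genes of amino acid supply were called with lymphoma; the lists below share a few genes. Their counts stand against 8.58% of all genes higher and 7.25% lower in spleen, and 11.6% and 12.5% in node, and several shares lie near these. Of 28 targets of ATF4 measured, 6 rose and 2 fell in each tissue. Among them Psat1, of serine synthesis, rose by 0.90 in spleen and 1.33 in node, Shmt2, of mitochondrial one-carbon metabolism, by 0.85 and 1.06, and Cth, which makes cysteine, by 0.89 and 0.92. Stc2, stanniocalcin 2, fell by 0.60 and 1.28. In asymptomatic against FVB/N spleen, where 0.311% of all genes fell, 3 of the 28 did, namely Atf3 (by 2.00), Ddit3 (by 1.14) and Ppp1r15a (by 1.31). The median fitted difference of the 28 with lymphoma was 0.01 in spleen and 0.20 in node, against -0.03 and -0.02 for all genes.

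Of 18 aminoacyl-tRNA synthetases, which charge tRNAs with amino acids, 1 rose in spleen, Qars at 0.36. In node 7 rose and 1 fell, with Qars at 0.56, Yars at 0.58, Kars at 0.48 and Gars at 0.46, while Sars fell by 0.62. Of 28 genes of amino acid metabolism, 5 rose and 1 fell in spleen, and 7 rose and 2 fell in node. Bcat1, which transaminates leucine, isoleucine and valine, rose by 1.25 and 1.56, while its means differed by 2.53 and 2.31. Shmt1 rose by 0.58 and 0.65, and Tdo2, which breaks down tryptophan, fell by 0.58 in node. Of 34 genes of amino acid sensing by mTORC1, 2 rose and 4 fell in spleen, and 6 rose and 7 fell in node. Mtor, the kinase itself, rose by 1.68 (SE 0.18) and 1.53 (SE 0.20), and the arginine sensor Castor1 fell by 0.87 and 0.91. Of 15 genes of cystine and glutathione metabolism, 2 rose and 1 fell in spleen, and 4 rose and 3 fell in node. Gclc, which catalyses the first step of glutathione synthesis, rose by 1.23 and 1.30, and Hmox1, a heme-degrading enzyme that is also on the macrophage list, fell by 1.32 in spleen and rose by 2.05 in asymptomatic against FVB/N spleen. In node the median difference of group means was below 0 for the lists of ATF4 targets (-0.03), metabolism (-0.02), mTORC1 sensing (-0.04) and glutathione (-0.05), where the median fitted differences were 0.20, 0.13, 0.03 and 0.33.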

How the data were processed

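Per the series' design text, the authors normalized the arrays at probe level by frozen robust multiarray analysis, and the deposited values are log2 intensities. Their own tests, by the same text, used surrogate variables, empirical Bayes moderation of a linear model and Benjamini-Hochberg adjustment. Software versions and the genome build are not given in the sources used here, and scanner files were not used, so signal over background was not assessed.

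Of 35557 probe sets 1 had no values. Of the other 35556, 21789 had 1 gene symbol, 1621 several and 12146 none, which left 19938 genes (999 with several probe sets, the one with the highest mean level kept) and no filter. Values ran from 2.07 to 14.43. The 30 arrays entered 1 limma fit (version 3.58.1, R 4.3.3) with 6 groups and 6 surrogate variables, computed with 5 iterations, their number set by 20 permutations at a p limit of 0.1. The fit was also run on simulated data, with independent noise drawn around its own surrogate variables. Such data cannot show whether the surrogate variables absorb real differences between groups. The number of arrays limits the precision. The labels name a mouse number for each array, so replicates are mice.

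The 60 genes and all lists were chosen with earlier results of these data known. Named genes were those called with lymphoma with the same sign in both batches (up to 12 per tissue), up to 6 called in each other comparison, 11 carriers of leucine, glutamine, arginine and cystine whatever their test, and up to 4 per list. Slc7a10, Slc36a1, Slc3a1, Slc38a8, Slc7a8 and Slc38a5, the neighbouring genes, and genes beyond 4 per list complete a count or were chosen after their values were seen.

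Numbers of mice pair samples across groups only through batch. Deviations of same-numbered lymphoma and asymptomatic spleens correlated at 0.23 to 0.50, and those of other numbers of the same batch at 0.15 to 0.43. In node the values were 0.08 to 0.24 and 0.04 to 0.29. Spleen and node of a mouse correlated at -0.01 to 0.68.

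Alternatives were fits without surrogate variables, with batch in their place, within each batch, with the organ lists as terms, without organ-carrying arrays, with mouse or mouse number as a block, after quantile normalization, on the upper 60% of genes by level, with the mean of a gene's probe sets, without the spleen array of lymphoma mouse 4, and without each mouse in turn.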

Additional observations from a re-analysis of the deposited data

Results flagged for a closer look

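In 12 of the 124 pairs of a carrier and a group of 6 arrays that were examined, the highest or lowest array stood far from the other 5, where chance alone flags about 1 in 20. Of these, 7 were arrays with pancreas transcripts, 6 of them the node of asymptomatic mouse 6. In that node Slc38a3 read 8.55 (next 6.46), Slc38a5 9.55 (next 7.18), Slc38a9 9.48 (next 8.75), Slc6a9 9.73 (next 7.73) and Slc7a2 7.23 (next 6.06), all highest in their group, and Slc7a10 read 6.26 (next 6.77), the lowest. In the spleen of asymptomatic mouse 4, Slc38a1 was the lowest at 9.55 (next 9.84).

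The other 5 were arrays without organ transcripts. Slc43a3 read 8.93 in the node of asymptomatic mouse 1, below the other 5 nodes of its group (lowest of them 10.01), and this was the node of the group that carried no organ list. Slc36a2 read 5.82 in the node of lymphoma mouse 4 (next 6.22). Slc36a1 read 7.87 in the spleen of lymphoma mouse 4 (next 8.13), the array with the deviating status code. Slc6a13 read 5.67 in the spleen of lymphoma mouse 6 (next 6.05), and Slc3a1 read 6.29 in the spleen of asymptomatic mouse 3 (next 6.13), the only one of these 5 that was a highest value.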

How the results depend on the processing

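Of 44 called differences of single carriers, 14 kept their call in every setting run for them (25 to 27 each), namely Slc6a19 and Slc43a3 with lymphoma against both other groups in both tissues, Slc36a4 in spleen against both, Slc38a2 and Slc7a6 in spleen against asymptomatic mice, Slc38a4 in node against asymptomatic mice and Slc7a7 in spleen against FVB/N, and 15 lost it in 5 or more. Slc43a2 turned negative in spleen within batch A (-0.0193) and in node without lymphoma mouse 3 (-0.0726, the range over single mice being -0.0726 to 0.602). Counts of carriers called for lymphoma against asymptomatic in node (16) were 26 with batch as a term, 27 with mouse number as a block, 10 within batch A, 10 with the organ lists as terms and 9 without organ-carrying arrays. The count for spleen (9) was 15 without the spleen array of lymphoma mouse 4. The count for the difference between tissues in that response (0) was 3 without surrogate variables, 4 with batch as a term, 4 with the number as a block and 2 within batch B. For asymptomatic against FVB/N in node (1) it was 0 without surrogate variables, with batch or organ lists as terms, within batch A, with the number block, after quantile normalization and without organ-carrying arrays, and 2 without the spleen array of lymphoma mouse 4; in spleen (0) it was 1 on the upper 60% of genes. For lymphoma against FVB/N in node (9) it was 17 without surrogate variables, 18 with batch as a term, 14 within batch A and 20 with the number block, and in spleen (9) it was 15 with organ lists as terms and 15 without organ-carrying arrays. For node against spleen in lymphoma (0) it was 1 within batch A and 1 without the spleen array of lymphoma mouse 4. Leaving out each mouse gave 8 to 14 for lymphoma against asymptomatic in spleen, 11 to 17 in node, 0 to 3 for the difference between tissues, 0 to 1 and 0 to 4 for asymptomatic against FVB/N in spleen and node, 5 to 12 and 7 to 15 for lymphoma against FVB/N, and 0 to 2 for node against spleen. The mouse as a random block (correlation 0.12) gave 9 and 18 calls for lymphoma against asymptomatic in spleen and node. Beyond Slc43a2, the number block ended the calls of Slc7a7 (0.64), Slc7a5 (0.46) and Slc3a1 (-0.19) for lymphoma against asymptomatic in node, of Slc43a1 for lymphoma against FVB/N in spleen (1.15) and node (1.16), and of Slc36a2 for lymphoma against FVB/N in spleen (-0.23) and asymptomatic against FVB/N in node (1.54). The causes of these shifts were not tested. Single carriers were followed across settings only where the main fit called them. Carriers called only in other settings are therefore not named.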
